A study of Mus musculus with 33 samples.

Results

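The neurexins, neuroligins and leucine-rich repeat transmembrane (LRRTM) proteins hold synapses together, and 9 of their genes were read out of the 23366 genes in each count table of frontal cortex RNA-Seq. They were taken by symbol: the neurexins Nrxn2 and Nrxn3, the neuroligins Nlgn1, Nlgn2 and Nlgn3, and Lrrtm1, Lrrtm2, Lrrtm3 and Lrrtm4. All 9 passed the filter on low counts in both tables and entered the tests.

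Frontal cortex came from C57BL/6 mice of about 1 month of age whose dams, and then dams with their pups, had breathed filtered air (air), e-cigarette aerosol from a liquid with 13 to 16 mg/mL of nicotine (nicotine), or e-cigarette aerosol from a liquid without nicotine (no nicotine). No genetic alteration is named for any group. The female groups held 6 (air), 5 (nicotine) and 5 (no nicotine) samples, and the groups labelled male 6, 6 and 5. Females and males were sequenced in separate runs, so sex and run cannot be told apart and levels were not compared between the sexes.

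Neurexins sit in the presynaptic membrane and reach across the cleft to bind neuroligins and LRRTMs on the postsynaptic side. Nlgn1 is found mainly at excitatory synapses, Nlgn2 at inhibitory synapses, and Nlgn3 at both. The LRRTM proteins bind neurexins at excitatory synapses, and the balance among the partners is known to shape how synapses form and mature in cortex.

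Library totals ran from 19150562 to 27513174 counts in females and from 17845672 to 24787955 in males, and a single member had between 625 and 16502 counts in a library. In the library labelled male nicotine replicate 21, Xist, the transcript that silences an X chromosome, was at 219 CPM (counts scaled to a common library size) and the Y-linked genes at 1 count. The other 16 libraries labelled male had at most 0.246 CPM of Xist and at least 2140 Y-linked counts. Its label is kept here, and the male nicotine changes of the members are also given without it. The partner and marker lists were not refitted without it.

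The sequence before the start site is shown for Nlgn1, Nlgn2 and Lrrtm1, since Nlgn1 was called lower in 1 female comparison, Lrrtm1 came close to the threshold in both female comparisons, and Nlgn2 was set against Nlgn1 as a ratio. Promoters from RefSeq (GRCm38.p6) were used for 6 of the 9 members, in 10 windows, and Lrrtm2 was left out of this search. Each 250-base stretch upstream of a start site was found base for base in mm9, the build named in the labels. These lie at chr3:26230832-26231081 on the minus strand (Nlgn1), chr11:69651287-69651536 on the minus strand (Nlgn2) and chr6:77192221-77192470 on the plus strand (Lrrtm1), with CpG dinucleotides in capitals.
Nlgn1: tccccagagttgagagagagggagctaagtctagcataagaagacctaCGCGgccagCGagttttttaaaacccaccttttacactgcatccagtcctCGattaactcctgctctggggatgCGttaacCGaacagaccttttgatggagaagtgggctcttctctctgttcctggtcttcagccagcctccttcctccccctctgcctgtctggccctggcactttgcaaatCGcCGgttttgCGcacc
Nlgn2: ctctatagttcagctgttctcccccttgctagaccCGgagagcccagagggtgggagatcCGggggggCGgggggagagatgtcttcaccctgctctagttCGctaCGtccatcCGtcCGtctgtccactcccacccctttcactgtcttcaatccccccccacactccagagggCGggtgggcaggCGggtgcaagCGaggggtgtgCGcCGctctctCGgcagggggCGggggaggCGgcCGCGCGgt
Lrrtm1: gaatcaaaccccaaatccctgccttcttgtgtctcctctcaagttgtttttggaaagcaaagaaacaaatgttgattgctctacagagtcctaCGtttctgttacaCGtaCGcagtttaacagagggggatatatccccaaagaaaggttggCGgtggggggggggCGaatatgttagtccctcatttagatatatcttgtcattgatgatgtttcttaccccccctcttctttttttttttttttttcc
The Nlgn2 stretch held 18 CpG dinucleotides and 67.6% G and C. The Nlgn1 stretch held 9 with 53.6%, while a second RefSeq window of Nlgn1, not printed and nearer its mm9 gene model, held 5 with 43.6%. The Lrrtm1 stretch held 5 with 42.0%. Over the 32851 mouse promoter windows the medians were 6 CpG and 52.4%. Both strands were searched for the GC box (GGGCGG), the cyclic AMP response element (TGACGTCA), the E-box (CACGTG) and the TATA box (TATAAA). These occur in 32.7%, 1.55%, 6.02% and 12.4% of all windows. Nlgn2 held 3 GC boxes, and none of the 4 motifs was found in the Nlgn1 and Lrrtm1 stretches. These matches are descriptions of letters and not sites of binding.

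Levels were compared between members as CPM per kilobase of the longest coding transcript. In female air samples Nrxn2 was at 97.4 ± 3.63 (SD, n = 6), followed by Nlgn2 at 73.4 ± 1.86 and Nrxn3 at 38.7 ± 2.93. Lrrtm1 was at 29.7 ± 1.04 and Nlgn1 at 24.9 ± 1.75. Lrrtm3 (16.5 to 21.1), Lrrtm2 (15.6 to 20.9) and Nlgn3 (14.1 to 16.0) followed, and the ranges of these neighbours overlapped. Lrrtm4 was lowest, at 9.85 ± 1.05 CPM per kilobase. This order held in all 6 groups, with overlapping ranges for Lrrtm1 and Nlgn1 in male nicotine samples and for Nlgn1 and Lrrtm3 in all 4 exposed groups. The order depended on the length used: per kilobase of all exon bases, Nlgn2 (70.6) came before Nrxn2 (47.0) in female air, and Nlgn1 (24.9) and Lrrtm1 (24.9) came before Nrxn3 (24.3).

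**Figure D1:**
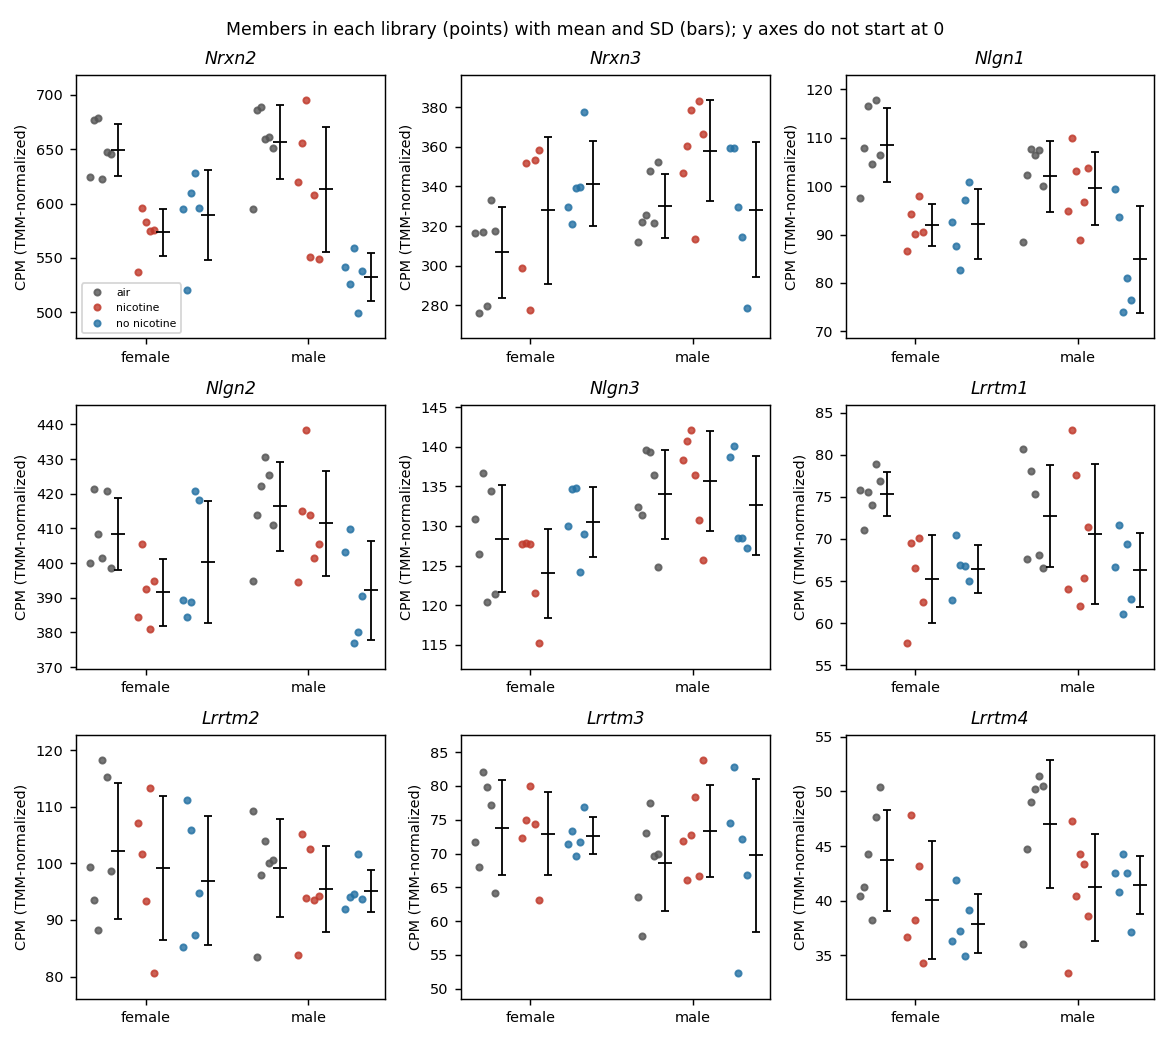
Normalized CPM (y axis, scaled per gene and not starting at 0) of each member in each library by sex (x axis) and treatment (colour), with the mean and SD beside the points. Nrxn2 in male no nicotine samples (499 to 559 CPM) lies below every male air sample (595 to 689 CPM), and most other groups overlap.

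To ask whether aerosol exposure altered these genes, each treatment was compared with air within a sex, with a Benjamini-Hochberg adjusted p from the quasi-likelihood test of edgeR and a threshold of 0.01. After exposure without nicotine, Nlgn1 was called lower in females and Nrxn2 in males, 1 member in each. These counts stand beside 12.1% of all genes tested in females and 13.6% in males. With nicotine no member was called in females, where 4.29% of all genes were, and none in males, where 0% of all genes were. An unadjusted p under 0.05, which is not the threshold for a call, was reached with nicotine by 3 members in females (Nrxn2, Nlgn1 and Lrrtm1) and 1 in males (Lrrtm4), beside 28.1% and 14.4% of all genes. Without nicotine 5 members in females and 3 in males reached it, beside 36.4% and 36.0%. DESeq2 called 3, 2, 0 and 2 members in female nicotine, female no nicotine, male nicotine and male no nicotine samples, where it called 8.70%, 17.1%, 1.04% and 17.2% of all genes. The median log2 fold change over the 9 was -0.061 and -0.077 in females with and without nicotine, and -0.036 and -0.086 in males. Over all genes tested the medians were 0.0041, 0.0092, 0.0065 and 0.016. Without male nicotine replicate 21 no member was called in males with nicotine either, and the log2 fold changes of Nrxn3, Nlgn2 and Nlgn3 were 0.097, -0.010 and 0.028. Those of Lrrtm1, Lrrtm2, Lrrtm3 and Lrrtm4 were -0.022, -0.049, 0.12 and -0.20, against -0.044, -0.055, 0.098 and -0.19 with it. In bulk tissue, fewer cells of a type and less RNA per cell cannot be told apart.

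**Figure D2:**
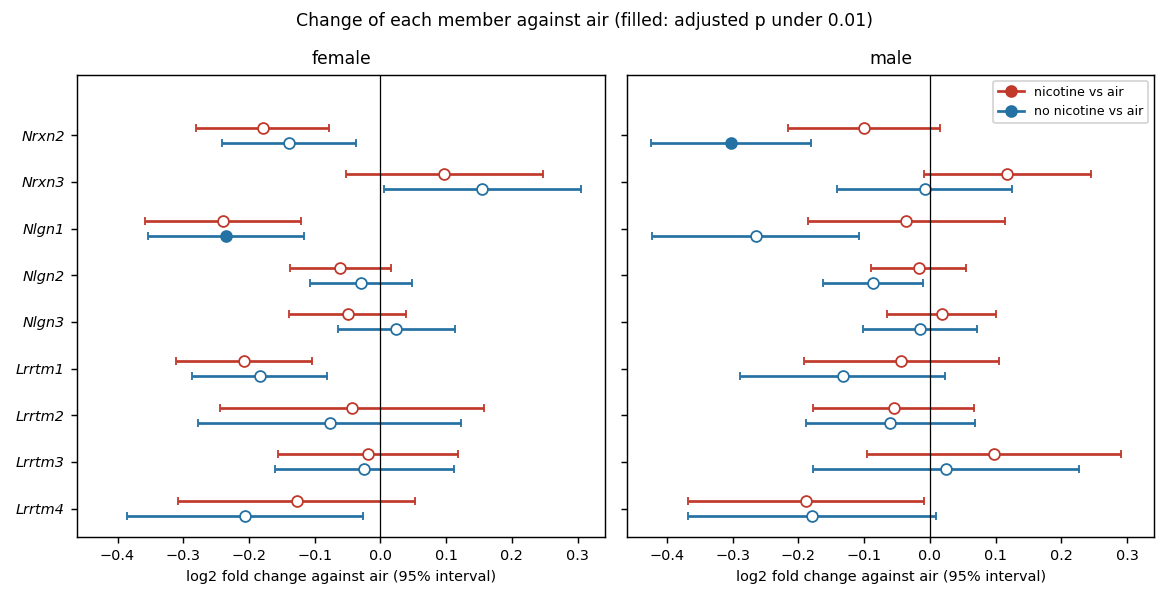
Log2 fold change against air (x axis) with its 95% interval for each member (y axis) in females and males, for nicotine (red) and no nicotine (blue). Filled points passed an adjusted p of 0.01: Nlgn1 in females without nicotine (-0.23) and Nrxn2 in males without nicotine (-0.30).

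Nrxn2 encodes a neurexin and lies on the plus strand at chr19:6418731-6544169 (mm9). In males its lowest, median and highest CPM in air were 595, 660 and 689, and the 5 no nicotine samples had 499, 526, 538, 541 and 559. All 5 were below all air samples. The fold change was -0.30 ± 0.058 (log2, SE), or 18.9% lower, with an edgeR adjusted p of 0.000992, and it stayed called when any of the 17 male libraries was left out (adjusted p from 0.000537 to 0.00315). With nicotine the 6 male values ran from 549 to 695 CPM with a median of 614, overlapping air. That change was -0.10 ± 0.055 (adjusted p = 0.432), and -0.097 without replicate 21. In females, air samples ran from 623 to 678 CPM (median 647), nicotine samples had 537, 575, 575, 583 and 596, and no nicotine samples had 520, 595, 596, 610 and 628. The nicotine samples did not overlap air, whereas 1 no nicotine sample lay within the air range. The female log2 fold changes were -0.18 ± 0.048 (adjusted p = 0.0220) and -0.14 ± 0.048 (adjusted p = 0.0428), both above the threshold. Of the 16 female libraries left out in turn, only no nicotine replicate 2 brought the female nicotine change past the threshold in edgeR (adjusted p = 0.00838).

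Nrxn3, the other neurexin measured here, lies on the plus strand at chr12:89961320-91573375 (mm9) and was not lower in females. Female air samples ran from 276 to 333 CPM (median 317). Female nicotine samples had 278, 299, 352, 353 and 358 CPM, and no nicotine samples had 321, 330, 339, 340 and 378. The groups overlapped, although 3 of 5 samples in each exposed group were above every air sample. Log2 fold changes were 0.097 ± 0.071 (adjusted p = 0.406) and 0.16 ± 0.071 (adjusted p = 0.123). In males, air ran from 312 to 352 CPM, nicotine from 313 to 383 and no nicotine from 278 to 360. The male changes were 0.12 ± 0.061 (adjusted p = 0.391) and -0.0080 ± 0.064 (adjusted p = 0.946), so no comparison of Nrxn3 with air passed.

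The ratio of Nrxn3 to Nrxn2 within a library does not depend on library scaling, and it was compared by an exact two-sided permutation test with adjustment over 8 ratio comparisons and a threshold of 0.05. In females the ratio ran from 0.408 to 0.514 in air (median 0.479), and was 0.476, 0.556, 0.591, 0.614 and 0.623 with nicotine. Without nicotine it was 0.541, 0.554, 0.557, 0.617 and 0.634, above every air sample. In males air ran from 0.469 to 0.541, nicotine from 0.544 to 0.667, and no nicotine samples had 0.518, 0.590, 0.630, 0.664 and 0.684. All 6 male nicotine samples and 4 of 5 male no nicotine samples were above every male air sample. The difference of log2 ratios was 0.27 in females with nicotine (exact permutation p = 0.0173, adjusted 0.0231) and 0.30 without (p = 0.00433, adjusted 0.0115). In males it was 0.22 with nicotine (exact permutation p = 0.00216, adjusted 0.0115), the smallest p that 6 against 6 samples allow, and 0.29 without (p = 0.0173, adjusted 0.0231). Without replicate 21 the male nicotine difference was 0.20 (adjusted p = 0.0115, exact permutation). All 4 differences passed under each sample left out, with adjusted p of at most 0.0435 by the exact permutation test. The 2 comparisons of a sex share their air samples. None of these adjusted p was under 0.01, the threshold used for single genes. Apart from Nlgn2 to Nlgn1 below, ratios of other gene pairs were not computed, so no share over all pairs stands beside these results. The ratios were not adjusted for the cell type markers described below.

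Nlgn1, the neuroligin of excitatory synapses, has its mm9 gene model on the minus strand at chr3:25330733-26032656, and the start site of the promoter printed above lies outside that model. Female air samples ran from 97.6 to 118 CPM with a median of 107. Nicotine samples had 86.6, 90.1, 90.6, 94.3 and 97.9 CPM, and no nicotine samples had 82.8, 87.6, 92.6, 97.1 and 101. Of the 5 samples in each exposed group, 4 were below every air sample. Without nicotine the log2 fold change was -0.23 ± 0.056 (adjusted p = 0.00641), from a mean of 108 ± 7.63 (SD, n = 6) to 92.2 ± 7.21 CPM (n = 5). With nicotine it was -0.24 ± 0.056 (adjusted p = 0.0112), a similar size just above the threshold.

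The female no nicotine call of Nlgn1 was close to the threshold. In a fit of the female air and no nicotine samples alone, Nlgn1 was not called (-0.24, adjusted p = 0.0130) and Lrrtm1 was (-0.19, adjusted p = 0.00566). The call of Nlgn1 was also lost when air replicate 2, 3, 5 or 6 was left out, with log2 fold changes of -0.24, -0.22, -0.21 and -0.24, and when no nicotine replicate 2 (-0.22) or 3 (-0.20) was. The edgeR adjusted p then lay between 0.0119 and 0.0230. The female nicotine change of Nlgn1 became called without air replicate 1 (-0.27) or no nicotine replicate 3 (-0.24).

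In males Nlgn1 ran from 88.5 to 108 CPM in air (median 104) and from 88.8 to 110 with nicotine. Without nicotine the samples had 74.0, 76.4, 81.1, 93.7 and 99.4 CPM, 3 of them below every air sample. The log2 fold changes were -0.036 ± 0.071 with nicotine (adjusted p = 0.873, and -0.028 without replicate 21) and -0.26 ± 0.075 without nicotine (adjusted p = 0.0149). Leaving out air replicate 30 (-0.30) or no nicotine replicate 2 (-0.33) brought the latter past the threshold.

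Nlgn2, the neuroligin of inhibitory synapses, lies on the minus strand at chr11:69636624-69651286 (mm9) and had a coefficient of variation of 2.46 to 4.41% within a group. Females had 399 to 421 CPM in air, 381 to 405 with nicotine and 384 to 421 without. Males had 395 to 431 CPM in air, 395 to 438 with nicotine and 377 to 410 without. The log2 fold changes lay between -0.086 ± 0.036 (male no nicotine, adjusted p = 0.0911) and -0.017 ± 0.035 (male nicotine, adjusted p = 0.875), and the groups overlapped. The 95% interval of the female no nicotine change was -0.11 to 0.048.

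Nlgn2 was set against Nlgn1 within each library, with the same test, threshold and limits as the ratio of the neurexins. In females the ratio in air had a median of 3.79 and a highest value of 4.10. It was 3.89, 4.30, 4.36, 4.36 and 4.44 with nicotine, and ran from 4.15 to 4.70 without (median 4.33). Each no nicotine female and 4 of 5 nicotine females were above every air female. The log2 differences were 0.18 with nicotine (exact permutation p = 0.0130, adjusted 0.0231) and 0.21 without (p = 0.00433, adjusted 0.0115). In males air ran from 3.93 to 4.46 and nicotine from 3.78 to 4.66, a log2 difference of 0.019 (exact permutation p = 0.719, adjusted 0.719), which was 0.018 without replicate 21 and turned to -0.015 without nicotine replicate 19. Male no nicotine samples had ratios of 4.06, 4.37, 4.69, 5.09 and 5.11. Their log2 difference from air was 0.18 (exact permutation p = 0.0303, adjusted 0.0346). It no longer passed without air replicate 31 (0.18), 33 (0.17), 37 (0.18) or 38 (0.18), or without no nicotine replicate 4 (0.15), 5 (0.18) or 7 (0.15), where the exact permutation adjusted p reached 0.0762.

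**Figure D3:**
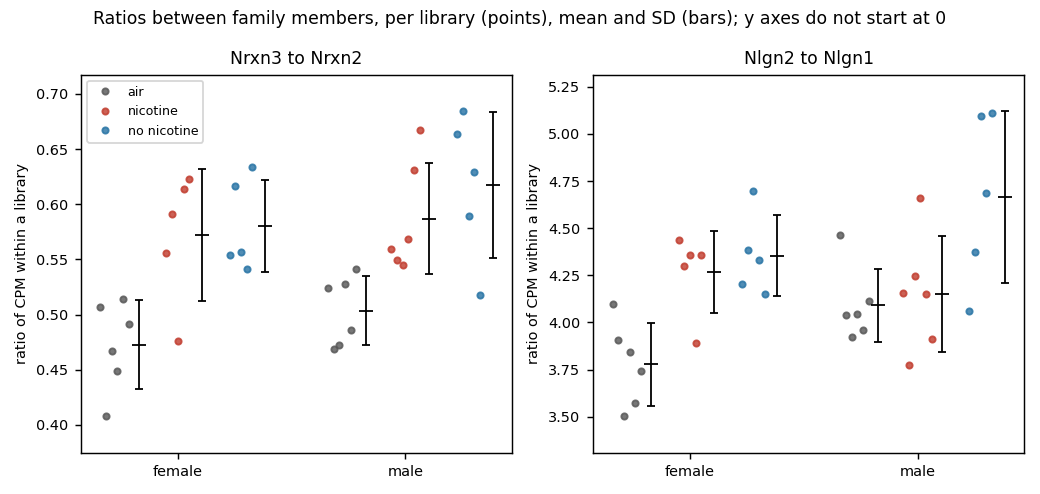
Ratio of counts (y axis, not starting at 0) of Nrxn3 to Nrxn2 and of Nlgn2 to Nlgn1 within each library (points), by sex and treatment, with the mean and SD. Female no nicotine samples lie above all female air samples in both panels, and in males the Nlgn2 to Nlgn1 ratio of nicotine samples (3.78 to 4.66) overlaps air (3.93 to 4.46).

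Nlgn3, an X-linked neuroligin at chrX:98491178-98521302 (mm9, plus strand), ran from 115 to 137 CPM in females and from 125 to 142 CPM in males. Its log2 fold changes against air were -0.050, 0.024, 0.018 and -0.015 in female nicotine, female no nicotine, male nicotine and male no nicotine samples, with adjusted p of at least 0.484. Its annotation shares 6.80% of its exon bases with Med12 on the same strand, and how reads in that stretch were assigned was not tested.

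Among the postsynaptic LRRTM genes, Lrrtm1 was lower in both exposed female groups without passing the threshold. It lies on the plus strand at chr6:77192683-77207785 (mm9). Female air samples ran from 71.1 to 78.8 CPM (median 75.7), nicotine samples had 57.6, 62.5, 66.6, 69.5 and 70.2, and no nicotine samples had 62.8, 65.0, 66.8, 66.9 and 70.5. Neither exposed group overlapped air. The log2 fold changes were -0.21 ± 0.049 (adjusted p = 0.0111) and -0.18 ± 0.049 (adjusted p = 0.0116). The first was called without nicotine replicate 5 (-0.24), and the second without nicotine replicate 1 (-0.19) or 5 (-0.19). Male samples overlapped, at 66.6 to 80.7 CPM in air, 62.1 to 82.9 with nicotine and 61.1 to 71.7 without. The male changes were -0.044 ± 0.071 and -0.13 ± 0.074 (adjusted p = 0.841 and 0.213).

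Lrrtm4 had the lowest counts, between 33.3 and 51.4 CPM over all libraries. Its log2 fold changes were -0.13 and -0.21 in females and -0.19 and -0.18 in males, with and without nicotine, and none passed (adjusted p of 0.0890 to 0.358). In the annotation 25.1% of its exon bases are shared with Gm4409 on the opposite strand, and the sources used here do not say whether counting used strand.

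Lrrtm2 ran from 80.6 to 118 CPM and Lrrtm3 from 52.3 to 83.8 CPM over both sexes. The log2 fold changes of Lrrtm2 lay between -0.077 and -0.044 and those of Lrrtm3 between -0.025 and 0.098, with adjusted p of at least 0.520. Exposed samples overlapped air for both genes in every comparison.

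The genes of Lrrtm1, Lrrtm2 and Lrrtm3 overlap those of Ctnna2, Ctnna1 and Ctnna3, which encode alpha-catenins, on the opposite strand and with no shared exon base. None of these 3 genes was called against air. Ctnna2 was closest, at -0.11 ± 0.036 in males without nicotine (adjusted p = 0.0300), where air samples had 181 to 195 CPM and no nicotine samples 166 to 183.

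Nicotine and no nicotine samples were then compared with each other. Per the paper, the mean particulate level in the chamber was higher for the aerosol without nicotine, so these groups differed in more than nicotine. No member was called in females or in males, where 0% and 0.248% of all genes were. In edgeR 0 and 2 members had an unadjusted p under 0.05, beside 8.35% and 20.1% of all genes, and DESeq2 called 0 members in either sex, beside 0% and 2.98%. In males Nrxn2 was higher with nicotine than without by 0.20 ± 0.058 (log2, adjusted p = 0.0588) and Nlgn1 by 0.23 ± 0.075 (adjusted p = 0.0936). Without replicate 21 these differences were 0.21 and 0.24. The female differences lay between -0.074 and 0.079.

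The male change minus the female change was tested on the 15105 genes in both tables. No member was called for either treatment, and 0% of all genes were called for nicotine and 0% for no nicotine. The differences of members ran from -0.070 to 0.19 for nicotine and from -0.17 to 0.044 for no nicotine, with adjusted p of at least 0.765 in edgeR. An unadjusted p under 0.05 was reached by Nlgn1 with nicotine (0.19 ± 0.095, and 0.20 without replicate 21) and by Nrxn2 without nicotine (-0.17 ± 0.075). A difference between the sexes in the change of Nlgn1 or Nrxn2 was therefore not shown.

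The wider machinery was described from lists of 82 other genes, covering neurexin ligands and presynaptic partners, neuroligin partners and regulators, regulators of neurexin splicing, and other adhesion molecules that organize synapses. Without nicotine 33 of 82 were called in females (5 higher, 28 lower) and 35 of 82 in males (4 higher, 31 lower), or 40.2% and 42.7% beside 12.1% and 13.6% of all genes. With nicotine 11 were called in females (1 higher, 10 lower), or 13.4% beside 4.29%. In males with nicotine 0 were called in edgeR, and 28 had an unadjusted p under 0.05, where 14.4% of all genes did. The median log2 fold changes without nicotine were -0.16 in females and -0.18 in males. Among the neurexin ligands and presynaptic partners, 6 of 25 were lower and 3 higher in females and 8 lower and 1 higher in males. Of the 11 neuroligin partners 6 were lower and 1 higher in females, and 3 lower and 0 higher in males. Of the 8 splicing regulators 3 were lower and 1 higher in females, and 4 lower and 1 higher in males. Of the 38 other organizers 13 were lower and 0 higher in females, and 16 lower and 2 higher in males.

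In both sexes 21 of these genes were called without nicotine, 19 lower and 2 higher in both. Nptx1, a neuronal pentraxin that gathers AMPA receptors, fell by 0.63 ± 0.10 on the log2 scale in females and by 0.76 ± 0.099 in males. Slitrk1, a postsynaptic adhesion protein, fell by 0.54 and 0.53. The calsyntenins, which bind neurexins, fell by 0.45 and 0.38 (Clstn1) and by 0.42 and 0.44 (Clstn2). Lrrc4, a netrin-G ligand at excitatory synapses, fell by 0.45 and 0.32. Khdrbs3, which regulates splicing of neurexin transcripts, fell by 0.56 and 0.53, whereas the neuronal splicing factor Nova1 rose by 0.52 and 0.47.

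Among presynaptic components, the adaptors Apba2 and Lin7a fell by 0.31 and 0.28 in females and by 0.28 and 0.31 in males. Syt1, the calcium sensor of vesicle release, fell by 0.39 and 0.42, and the postsynaptic scaffold gene Dlg3 by 0.27 and 0.30. C1ql2, a secreted protein that binds neurexins, rose by 1.54 ± 0.33 and 1.55 ± 0.28. These values stand in edgeR with adjusted p of at most 0.00456 in each sex.

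**Figure D4:**
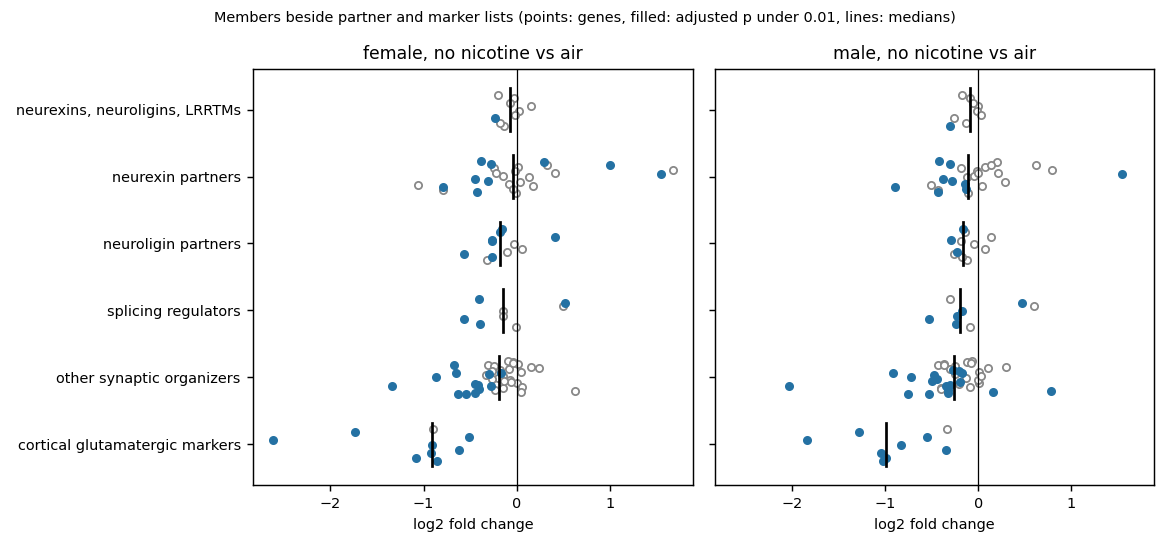
Log2 fold change of no nicotine against air (x axis) for the 9 members, the partner lists and cortical glutamatergic markers (y axis), in females and males, with each gene as a point, medians as lines and genes with an adjusted p under 0.01 filled. The members' medians are -0.077 and -0.086 and those of the marker list -0.91 and -0.99.

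Markers of cell types moved with treatment. The 9 cortical glutamatergic markers were all below air in every comparison, and 8 of 9 were called in each no nicotine comparison and 0 with nicotine. Their summed CPM in females was 2559 to 3338 in air, 1727 to 2420 with nicotine and 1022 to 2520 without. In males it was 2474 to 2970 in air, 1740 to 2464 with nicotine and 819 to 1814 without. Slc17a7, the vesicular glutamate transporter of cortex, was at 653 CPM or more in every library.

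All 7 basal forebrain cholinergic markers were called higher in both female comparisons and in males without nicotine. Their sum in females was 20.1 to 79.6 CPM in air, 83.5 to 195 with nicotine and 109 to 289 without, and in males 34.9 to 82.0, 94.5 to 144 and 112 to 238. All 8 myelin markers were called higher in the same 3 comparisons. Striatal projection neuron markers were called higher for 3, 1, 0 and 2 of 9 genes in female nicotine, female no nicotine, male nicotine and male no nicotine samples. GABAergic markers were called higher for 2, 4, 0 and 3 of 7 and lower for 1, 1, 0 and 1. Of the remaining lists, thalamus had 1, 1, 0 and 1 of 4 genes higher, choroid plexus 3 of 5 and astrocytes 1 of 6 in male no nicotine samples, and microglia and endothelium had none called. No marker was at 0 counts in any library except Folr1 of choroid plexus in 1 female library.

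With the mean log2 CPM of the cortical glutamatergic list as a covariate, Nrxn2 in males without nicotine was at -0.33 (adjusted p = 0.0969) and Nlgn1 in females without nicotine at -0.21 (adjusted p = 0.851), and no member was called. Nlgn1 in males without nicotine was at -0.48 (adjusted p = 0.0569), and Lrrtm1 in females at -0.26 with and -0.26 without nicotine. Nrxn3 turned from above to below air in females, to -0.062 and -0.071. That fit called at most 13 genes of all tested in any comparison with air. The covariate ran in females from 5.73 to 6.39 in air, 4.72 to 5.84 with nicotine and 4.51 to 5.61 without. In males it ran from 5.75 to 6.01 in air, 5.04 to 5.59 with nicotine and 4.16 to 5.56 without. Where these ranges do not overlap, the fit can hardly tell the covariate from treatment, so a lost call cannot be interpreted. With the covariate, Nrxn2 was at -0.12 in females without nicotine and Nrxn3 at -0.25 in males without nicotine. The part of the marker differences in the changes of Nrxn2, Nlgn1, Lrrtm1 and Nrxn3, or in the ratios, was not tested.

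The genes most like each member were sought among 13719 genes by the root mean square difference of the 6 group means of log2 CPM over 33 samples, centred within each table. Dgke was nearest to Nrxn2 (0.0098), Ift122 to Nlgn1 (0.0078), Car4 to Lrrtm1 (0.0059) and Dr1 to Nlgn2 (0.0016). The others were C630043F03Rik for Nrxn3, Slc25a14 for Nlgn3, Ddx19b for Lrrtm2, Mre11a for Lrrtm3 and Brpf3 for Lrrtm4. Of the members, Nrxn2 had Nlgn1 as its nearest (0.034), at rank 158 among all genes.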

How the data were processed

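Frontal cortex RNA-Seq of 33 samples was analysed, 16 labelled female and 17 labelled male. The authors deposited raw read counts per gene, 1 table per sex, from single reads mapped to the mm9 transcriptome with Bowtie, freed of duplicates with SAMtools and counted with HTSeq, so the counts lack duplicate reads. The deposited size-factor normalized tables were not used. Of 34 count columns, 1 was not matched to a labelled sample and was left out. Between replicates of a group, chi-square per degree of freedom was at least 4.46 over 75 pairs, so no library was counted as a duplicate.

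Genes with CPM summed over a sex of at least 5 were tested. After TMM normalization, edgeR 4.0.16 (glmQLFit and glmQLFTest, a quasi-likelihood test) was run with 1 fit per sex over its 3 groups and a Benjamini-Hochberg adjusted p of 0.01 as threshold. CPM are TMM-normalized. Ratios of counts within a library were compared with exact two-sided permutation tests (scipy 1.17.1). When a sample was left out, only the p of the ratio comparison at hand was recomputed. The p of the other ratio comparisons were kept from all samples for the adjustment. Alternatives were DESeq2 1.42.0, limma-voom (limma 3.58.1) with quality weights, 2 other scalings, 2 other filters, fits of 2 groups, a cortical marker covariate, a replicate block, 10 counts added to ratios and each sample left out. Scripts were tested on simulated data.

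Named genes are the members, at most 12 partner genes called in both no nicotine comparisons, the host genes, the nearest gene of each member, and Slc17a7. Genes that share exon bases with a member are named with it. Xist and Folr1 were named after their values were seen. A further gene is not reported here. The members and lists were chosen with earlier results of these data known. Per the paper's methods each pup came from its own litter.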

Additional observations from a re-analysis of the deposited data

Results flagged for a closer look

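A sample stood apart from the rest of its group, by the gap to its nearest neighbour relative to the group's range, in 3 of 66 groups examined over the members and ratios. Chance alone flags about 1 group in 20. Lrrtm2 was at 102 CPM in male no nicotine replicate 5, against 92.0 to 94.6 CPM in the other 4. The ratio of Nlgn2 to Nlgn1 was 3.89 in female nicotine replicate 5, against 4.30 to 4.44 in the other 4, and 4.46 in male air replicate 30, against 3.93 to 4.11 in the other 5.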

How the results depend on the processing

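Of 1458 values recomputed under an alternative, 1361 kept their direction and their side of the threshold, or stayed within 1.5 times for a count. Of these, 1074 were fold changes of single members, most of them uncalled both times. Outside the comparisons with air, only the fold changes of Nrxn2 and Nlgn1 entered this tally. The number of members called in females without nicotine moved in 8 of 16 fits with a sample left out. The number of members called differed between methods. DESeq2 called 3 members in females with nicotine (Nrxn2, Nlgn1, Lrrtm1), 2 in females without (Nlgn1, Lrrtm1) and 2 in males without (Nrxn2, Nlgn1). Limma-voom called 2 in each female comparison (Nlgn1 and Lrrtm1). In females without nicotine 0 were called with upper quartile factors, with the cortical marker covariate or with the replicate block, and in males without nicotine 0 with the covariate. With only the 2 groups fitted, 1 was called in females without nicotine as in the fit of 3 groups, but it was Lrrtm1 and not Nlgn1. Leaving out each sample gave 0 to 1 members in female nicotine, 0 to 2 in female no nicotine and 1 to 2 in male no nicotine samples. It gave log2 ratio differences of Nlgn2 to Nlgn1 of 0.15 to 0.23 in males without nicotine and of -0.015 to 0.046 in males with nicotine. The cause of these shifts was not tested. Direction changed only for changes that were not called. With upper quartile factors Lrrtm3 in female nicotine samples became 0.0018 and Nlgn1 in females with against without nicotine 0.00036. With the cortical covariate Nrxn3 became -0.062 and -0.071 in females with and without nicotine, Lrrtm3 0.016 and 0.028 there and -0.0038 and -0.21 in males, Nlgn3 -0.036 in males with nicotine and Lrrtm2 0.031 in males without. With limma-voom Nrxn3 in males without nicotine became 0.010. With a sample left out, female nicotine values spanned -0.097 to 0.024 (Lrrtm2) and -0.055 to 0.031 (Lrrtm3), and Lrrtm3 in females without nicotine -0.067 to 0.0040. In males without nicotine Lrrtm3 spanned -0.046 to 0.11, Nlgn3 -0.036 to 0.000023 and Nrxn3 -0.044 to 0.046. Nlgn1 spanned -0.041 to 0.029 in females with against without nicotine and -0.10 to 0.0076 in the male minus female no nicotine change.

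The replicate numbers of females were not shown to pair the samples: of 14 same-numbered pairs, 4 had a correlation of deviations over 0.1 (range -0.27 to 0.27). With the replicate number as a block, all genes called fell from 651 to 136 with nicotine and from 1829 to 736 without. Nlgn1 in females was then at -0.24 without nicotine (adjusted p = 0.0115), and with against without nicotine it was 0.0035. Males share no replicate numbers across all groups, and no block was fitted there.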
